A study of Mus musculus with 21 samples.

Results

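The genes described here are 9 components of the R-spondin and Wnt pathway, measured in mammary tumours of transgenic mice. They are the R-spondin ligands Rspo1, Rspo2 and Rspo3, the receptors Lgr4, Lgr5 and Lgr6, and the secreted Wnt antagonists Sostdc1, Wif1 and Sfrp1. Every feature annotated to 1 of these symbols was used, which gave 13 of the 45220 features on the array and 9 of 19087 genes. All 9 were measured in all 20 tumours and entered the fit of 19069 genes. The set was chosen by measured values: Sostdc1 and Rspo1 had stood out between the genotypes in these same data, and the other 7 are further ligands, receptors and antagonists of the pathway. All differences of Rspo1 and Sostdc1 between genotypes, and those of ATX from the receptor genotypes for all 9 genes, are therefore given as a description. For them no p-value is printed, and counts of calls stand only beside the share of all genes called. The differences among the receptor genotypes in the other 7 genes, and those between slides, were tested.

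R-spondins are secreted proteins that bind LGR receptors and the ubiquitin ligases ZNRF3 and RNF43, which otherwise remove Frizzled receptors from the cell surface. Their binding leaves more Frizzled at the surface and raises the response of a cell to Wnt. In the mouse mammary gland Rspo1 is known as a hormone-regulated product of luminal cells that, together with Wnt4, sustains basal stem cells. Sostdc1 binds BMP ligands and the Wnt co-receptors, and Wif1 and Sfrp1 bind Wnt proteins directly.

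The tumours came from mice with 1 of 4 transgenes driven by the MMTV promoter, which drives expression in the mammary epithelium. One transgene was ATX (autotaxin, an enzyme whose product is the lipid mediator lysophosphatidic acid, LPA) and the others were the LPA receptors LPA1, LPA2 and LPA3, with 5 mice each and 1 tumour per mouse. Each tumour RNA (Cy5) was hybridised with whole-mouse total RNA (Cy3) on an Agilent 2-colour array, with 1 dye orientation throughout and a second array for LPA1 mouse 4. Strain, age, founder line and the number of lines per transgene are not given in the labels, and normal mammary gland is not analysed here. A value is the log2 ratio of tumour to whole-mouse RNA, so 0 is the level of the reference. The log base was taken as 2, since the sources used here do not state it. The sign follows the dyes in the labels.

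The arrays lay on several slides that differed. The SD of the log2 ratios over an array was 0.825 to 0.903 on slides 5 and 6 and 1.20 to 1.43 on the other slides. Slides 5 and 6 held no ATX tumour, 3 LPA1, 3 LPA2 and 1 LPA3 tumour. The slide set was therefore tested as a term beside the genotype, and values with the slide as a term are given for the genes it moved most. As a check of the tissue, the median of 8 luminal alveolar markers, caseins among them, lay above the reference in every tumour (0.69 to 4.21), and that of 6 liver markers below it in every tumour (−4.43 to −0.57). The tumours are bulk tissue, in which fewer cells of a type and less RNA per cell cannot be told apart.

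Rspo1 had the widest range of genotype means of the 9 genes. Its ATX tumours were all above the reference and its LPA3 tumours all below it. In ATX mice 1 to 5 the log2 ratios were 4.96, 2.86, 1.30, 1.65 and 0.62, with a mean of 2.28 ± 1.71 (SD, n = 5). In LPA1 mice 1 to 5 they were −0.37, 0.55, 0.96, 0.38 and 1.57 (0.62 ± 0.72), a narrow band around or just above the reference. In LPA2 mice 1 to 5 they were 2.15, 1.74, −2.69, −3.23 and 0.80 (−0.25 ± 2.53). These LPA2 tumours fell into 2 sets, with mice 1, 2 and 5 above the reference and mice 3 and 4 far below it. In LPA3 mice 1 to 5 they were −4.20, −3.55, −7.21, −2.19 and −4.09 (−4.25 ± 1.84), and LPA3 mouse 3 was the lowest of all 20 tumours. The order of the means was ATX, LPA1, LPA2 and LPA3. ATX and LPA1 overlapped, as did ATX and LPA2, LPA1 and LPA2, and LPA2 and LPA3. Of the 5 ATX tumours, 2 were above every receptor tumour. The lowest ATX tumour was 2.81 above the highest LPA3 tumour, and the lowest LPA1 tumour 1.83 above it.

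**Figure D1:**
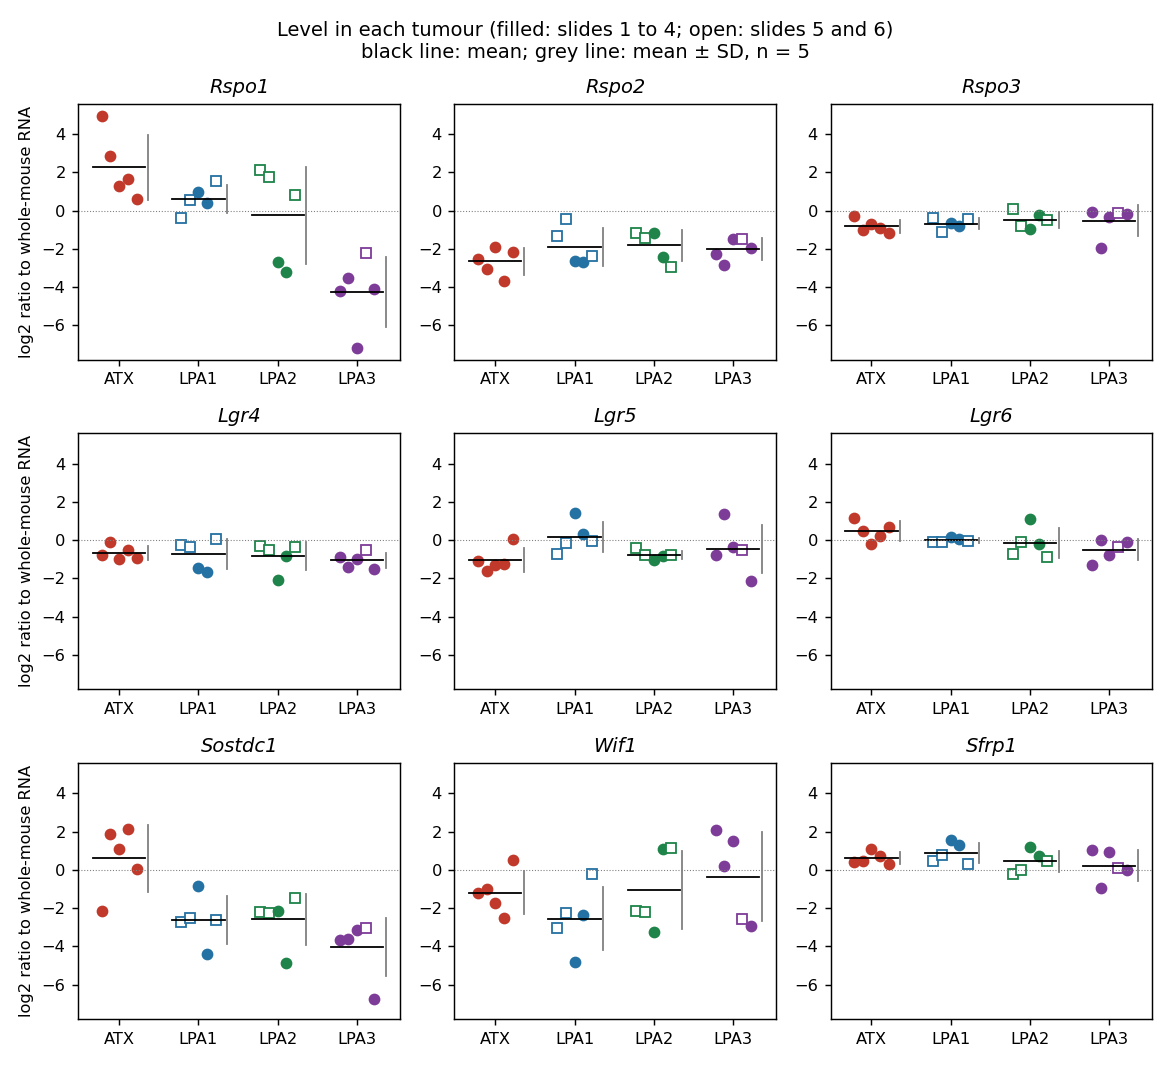
The 9 panels plot the log2 ratio to whole-mouse RNA (y axis) of each gene in each tumour by genotype (x axis), ordered by mouse number, with the genotype mean (black line) and the mean ± SD (grey line, n = 5). Filled symbols are slides 1 to 4 (and the mean of both arrays for LPA1 mouse 4) and open symbols slides 5 and 6. Rspo1 and Sostdc1 are high in ATX and low in LPA3 tumours, without overlap of these genotypes, but ATX overlaps LPA1 and LPA2. The 5 tumours of each genotype overlap for the other 7 genes.

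Among the 18935 genes measured in all tumours, Rspo1 had rank 1 by the range of its 4 genotype means (6.53) and rank 5 by its SD over tumours (2.97, against a median of 0.59 over genes). ATX exceeded the mean of the receptor genotypes by 3.57 (SE 0.86), LPA1 by 1.66 (SE 1.06), LPA2 by 2.52 (SE 1.06) and LPA3 by 6.53 (SE 1.06). LPA3 lay below LPA1 by a difference of −4.87 (95% interval −7.11 to −2.62, not adjusted for the number of genes) and below LPA2 by −4.00 (−6.24 to −1.76). The difference of LPA2 minus LPA1 was −0.87 (−3.11 to 1.38), an interval that leaves both directions possible.

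The split among LPA2 tumours followed the slides. The 3 LPA2 tumours on slides 5 and 6 ranged from 0.80 to 2.15, and the 2 on slides 1 to 4 from −3.23 to −2.69. LPA2 minus LPA1 was 0.97 on slides 5 and 6 alone and −3.55 on slides 1 to 4 alone. That change of difference between the slide sets was −4.53 (SE 1.57). On slides 1 to 4 the 4 LPA3 tumours ranged from −7.21 to −3.55 and the 5 ATX tumours from 0.62 to 4.96. Of these 4 LPA3 tumours 3 lay on slide 2, which held no ATX or LPA1 tumour. With the slide as a fixed block, ATX minus LPA3 was 5.21 (SE 0.90), LPA3 minus LPA1 −1.78 (SE 0.84) and LPA3 minus LPA2 −2.13 (SE 0.74), so the distance of LPA3 from the other receptors was smaller within slides. The part of the slide in these differences was not tested. The LPA3 tumour on slides 5 and 6 was the highest of its genotype at −2.19. With the slide set as a covariate, ATX minus the receptors was 4.67 (SE 0.82), and slides 5 and 6 were higher than slides 1 to 4 by 2.33 (SE 0.79, limma adjusted p = 0.0767).

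The bases upstream of Rspo1 are shown because this ligand varied most, and because TCF and LEF factors, the nuclear effectors of Wnt signalling, bind the core CTTTGA. The stretch is chr4:124986180-124986400 on the plus strand of GRCm38.p6, 221 bases that end just before the first annotated base of the gene in the RefSeq gene table. That base lies upstream of the start on which the RefSeq promoter window is set, so the stretch is the upstream part of that window.
Rspo1 upstream: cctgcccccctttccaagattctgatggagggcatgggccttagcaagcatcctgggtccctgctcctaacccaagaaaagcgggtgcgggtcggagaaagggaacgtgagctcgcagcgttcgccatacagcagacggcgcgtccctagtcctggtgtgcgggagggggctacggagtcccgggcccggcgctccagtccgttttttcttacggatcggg
It is written without capitals since the core occurs in it on neither strand, and 63.3% of it is G or C. RefSeq promoter windows, from 250 bases before to 50 after the start they are set on, were matched for 4 of the 9 genes, Rspo1, Lgr4, Lgr6 and Wif1. The core was in 0 of these 4 windows, and in 5257 of all 32851 windows (16%). This says only that these letters are not in these windows.

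Rspo2, a ligand of the same LGR receptors, was below the reference in 20 of 20 tumours. The ATX mean was −2.65 ± 0.71, the LPA1 mean −1.90 ± 0.99, the LPA2 mean −1.82 ± 0.83 and the LPA3 mean −2.02 ± 0.56 (SD, n = 5 each). The highest tumour was LPA1 mouse 2 at −0.41 and the lowest ATX mouse 4 at −3.66. All 4 genotypes overlapped, and ATX minus the receptors was −0.74 (SE 0.39). It shrank to −0.27 (SE 0.46) with the slide set as a covariate and to −0.21 (SE 0.53) with the slide as a fixed block.

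Rspo3, the R-spondin with a known role in blood vessels, was within 2 log2 units of the reference in all tumours. Its means ran from −0.82 ± 0.34 in ATX to −0.48 ± 0.43 in LPA2, and ATX minus the receptors was −0.26 (SE 0.26). LPA3 mouse 2 stood apart at −1.94, against −0.32 to −0.07 in the other LPA3 tumours. Its 2 probes did not track each other (r = −0.19 over 20 tumours). The probe for NM_028351 averaged −1.24 and the probe for AK076308 −0.02, and the latter was recorded as exactly 0 on 8 of 21 arrays. Averaging both thus narrows the range of Rspo3, and no order of genotypes was read from it.

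Of the receptors, Lgr4, the LGR that is broadly present in epithelia, was below the reference in 19 of 20 tumours. The ATX mean was −0.66 ± 0.38, the LPA1 mean −0.72 ± 0.78, the LPA2 mean −0.81 ± 0.72 and the LPA3 mean −1.05 ± 0.38. The genotypes overlapped, and ATX minus the receptors was 0.21 (SE 0.30). Lgr4 was the member called for the slide set. Its 7 tumours on slides 5 and 6 ranged from −0.54 to 0.07 and its 13 on slides 1 to 4 from −2.70 to −0.07, so the sets overlapped only between −0.54 and −0.07. Beside the genotype, slides 5 and 6 were higher by 1.26 (SE 0.27, limma adjusted p = 0.00474). Of the 9 genes, 1 was called for the slide set, beside 8.72% of all genes. Rspo1, given above, and Sfrp1, lower on slides 5 and 6 by a difference of −0.76 (SE 0.28, limma adjusted p = 0.109), did not pass. The call was not kept after arrays were scaled to the same spread (0.67, adjusted p = 0.0946) or quantile normalized (0.87, adjusted p = 0.0646). With the slide set as a covariate ATX minus the receptors rose to 0.86 (SE 0.27), with the slide as a fixed block to 1.33 (SE 0.31) and on slides 1 to 4 alone to 0.91 (SE 0.30). The 2 probes of Lgr4 were unrelated over tumours (r = −0.01), with ATX minus the receptors at 0.59 (SE 0.37) for AK052660 and −0.18 (SE 0.43) for NM_172671.

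Lgr5, a Wnt target and stem cell marker of several epithelia, was lowest in ATX tumours by the mean. In ATX mice 1 to 5 the log2 ratios were −1.06, −1.58, −1.30, −1.26 and 0.05 (−1.03 ± 0.63). In LPA1 mice 1 to 5 they were −0.73, −0.15, 1.42, 0.34 and −0.05 (0.17 ± 0.80), where the value of mouse 3 rests on 1 probe because the other is missing. The missing probe, for NM_010195, read lower than the other in 17 of 19 tumours (mean difference −1.385). The value of mouse 3 and the LPA1 mean may thus be too high. The LPA2 tumours lay close together, from −1.02 to −0.40 (−0.76 ± 0.23). The LPA3 tumours spread widely, from −2.13 in mouse 5 to 1.39 in mouse 2 (−0.47 ± 1.25). ATX minus the receptors was −0.68 (SE 0.40), and −1.46 (SE 0.50) with the slide as a fixed block. By single probes it was −1.33 (SE 0.54) for NM_010195 against 0.10 (SE 0.32) for AK047873. The latter was recorded as exactly 0 on 7 of 21 arrays, and the probes correlated at r = 0.36 over 19 tumours. LPA2 minus LPA1 was −0.93 (95% interval −1.97 to 0.10, limma adjusted p = 0.999).

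Lgr6, an LGR known to mark progenitor cells in the skin and mammary gland of the mouse, had an ATX mean of 0.48 ± 0.52, an LPA1 mean of −0.01 ± 0.11, an LPA2 mean of −0.15 ± 0.80 and an LPA3 mean of −0.49 ± 0.54. In ATX mice 1 to 5 the log2 ratios were 1.15, 0.51, −0.22, 0.21 and 0.72, so 4 of 5 were above the reference. In the receptor genotypes 4 of 15 were above it, with LPA2 mouse 3 at 1.14 as the highest. ATX minus the receptors was 0.69 (SE 0.28), and 0.25 with the slide as a fixed block. LPA3 minus LPA1 was −0.48 (95% interval −1.21 to 0.24, limma adjusted p = 0.679).

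**Figure D2:**
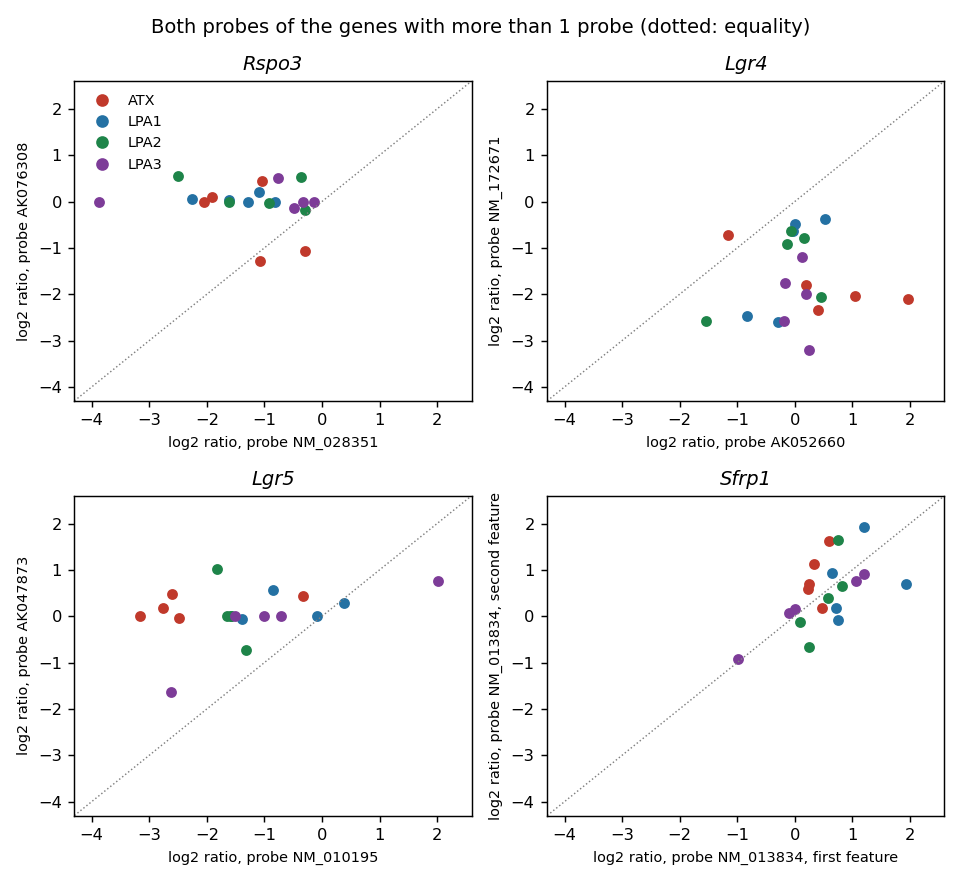
The panels plot, for the 4 genes with more than 1 feature, the log2 ratio of both features against each other in each tumour, coloured by genotype, with the line of equality dotted. The points of Sfrp1 lie along the line (r = 0.59), those of Rspo3 and Lgr4 do not, and many values of the Rspo3 probe for AK076308 and the Lgr5 probe for AK047873 lie at 0.

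Of the antagonists, Sostdc1 was the other gene with a clearly higher mean in ATX than in each receptor genotype. Its ATX tumours were apart from the LPA3 tumours but overlapped those of LPA1 and LPA2. In ATX mice 1 to 5 the log2 ratios were −2.18, 1.90, 1.07, 2.13 and 0.06 (0.60 ± 1.75). In LPA1 mice 1 to 5 they were −2.73, −2.52, −0.86, −4.38 and −2.61 (−2.62 ± 1.25). In LPA2 mice 1 to 5 they were −2.20, −2.25, −2.14, −4.89 and −1.50 (−2.60 ± 1.32). The receptor tumours were below the reference in 15 of 15 cases, and 4 of 5 ATX tumours were above it and above every receptor tumour. In LPA3 mice 1 to 5 they were −3.69, −3.60, −3.16, −3.05 and −6.73 (−4.05 ± 1.53), all below the 5 ATX tumours by at least 0.88. ATX mouse 1 was the exception among ATX tumours and lay within the range of LPA1 and LPA2. The order of the means was ATX, LPA2, LPA1 and LPA3, where LPA1 and LPA2 were within 0.02 of each other.

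ATX exceeded the mean of the receptor genotypes in Sostdc1 by 3.68 (SE 0.70), and LPA1 by 3.22 (SE 0.86), LPA2 by 3.19 (SE 0.86) and LPA3 by 4.64 (SE 0.86). By the range of genotype means it had rank 5 of 18935 genes, and its mean over all tumours had rank 18347, near the low end. Among the receptor genotypes, LPA3 minus LPA1 was −1.43 (95% interval −3.25 to 0.40, not adjusted for the number of genes) and LPA3 minus LPA2 −1.45 (−3.28 to 0.38). LPA2 minus LPA1 was 0.02 (−1.80 to 1.85), so differences of close to 2 in either direction remain possible. On slides 5 and 6, where the ratios of whole arrays were narrower, the values of Sostdc1 were tightly grouped, from −3.05 to −1.50 over 7 tumours. ATX minus the receptors was 4.25 (SE 1.00) on slides 1 to 4 alone and 3.50 (SE 1.07) with the slide as a fixed block. The 2 arrays of LPA1 mouse 4 gave −3.31 and −5.46, a difference of −2.15 between both arrays of this tumour. Over all genes the median size of that difference was 0.40 and its 95th percentile 1.87, so Sostdc1, Rspo2 (−2.25) and Lgr4 (−2.09) repeated less closely than most genes, and Rspo1 (−0.31) more closely than the median.

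Wif1 varied widely within each genotype. In ATX mice 1 to 5 the log2 ratios were −1.23, −0.98, −1.76, −2.51 and 0.52 (−1.19 ± 1.12). In LPA1 mice they ranged from −4.82 to −0.23 (−2.55 ± 1.65), and in LPA2 mice from −3.25 to 1.15 (−1.07 ± 2.05). In LPA3 mice 1 to 5 they were 2.09, 0.20, 1.50, −2.58 and −2.95 (−0.35 ± 2.31), with 3 tumours above and 2 far below the reference. Its SD over the 20 tumours was 1.87, rank 174 of 18935, yet ATX minus the receptors was 0.13 (SE 0.87), and 1.43 (SE 1.23) with the slide as a fixed block. LPA3 minus LPA1 was 2.20 (95% interval −0.07 to 4.47, limma adjusted p = 0.548), and −0.74 on slides 5 and 6 alone, which hold 1 LPA3 tumour.

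Sfrp1 was the only antagonist of the 3 with a mean above the reference in every genotype. The ATX mean was 0.61 ± 0.32, the LPA1 mean 0.89 ± 0.54, the LPA2 mean 0.44 ± 0.57 and the LPA3 mean 0.22 ± 0.81, and it was above the reference in 16 of 20 tumours. All genotypes overlapped. ATX minus the receptors was 0.09 (SE 0.30), and −0.28 (SE 0.29) with the slide set as a covariate. By single features it was −0.22 (SE 0.29) and 0.41 (SE 0.37), so its sign is open. LPA3 minus LPA1 was −0.67 (95% interval −1.44 to 0.10, limma adjusted p = 0.589).

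Counted over the 9 genes, 1 (Sostdc1) was called for ATX against the receptors, beside 0.0996% of all genes, and 2 (Rspo1 and Sostdc1) for ATX against LPA3, also beside 0.0996% of all genes. The comparison with LPA3 alone was added after the values had been seen, and both contrasts share the ATX tumours. In the F test over the 4 genotypes 0 of 9 were called by limma, beside 0.0315% of all genes, and 2 of 9 had an unadjusted p under 0.05, beside 10.9%. Rspo1 and Sostdc1 were also the 2 of 9 genes whose ATX and LPA3 tumours did not overlap, beside 2.29% of all genes. For LPA1 against LPA3 it was Rspo1 alone, beside 1.18%. Since these contrasts chose the genes, nothing is read from the counts.

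Between the receptor genotypes limma called 0 of 9 genes in each pair. The background of calls was 0.0% of all genes for LPA2 against LPA1, 0.00524% for LPA3 against LPA1 and 0.0% for LPA3 against LPA2. At an unadjusted p under 0.05 the count was 0 of 9 for LPA2 against LPA1, beside 3.66% of all genes. It was 1 of 9, Rspo1, for LPA3 against LPA1, beside 9.2%, and for LPA3 against LPA2, beside 9.32%. Apart from Rspo1, the differences in these pairs ran from −1.45 to 2.20.

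Over 33 settings, 20 of which each left out 1 tumour, ATX minus the receptors in Rspo1 ranged from 2.84 to 4.67 and in Sostdc1 from 3.30 to 4.38. Whether a gene was called changed with the setting.

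**Figure D3:**
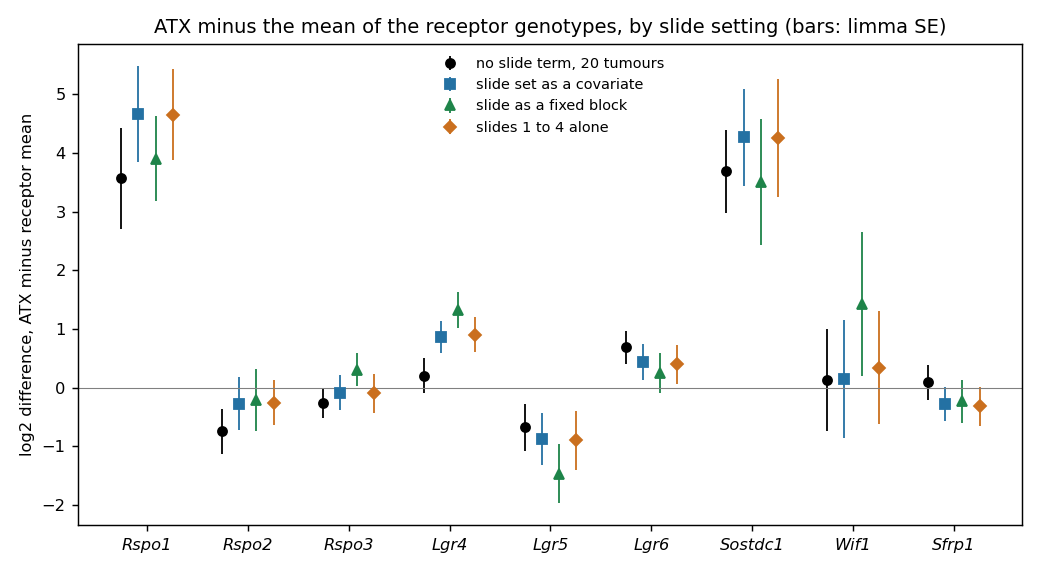
For each gene (x axis) the log2 difference of ATX minus the mean of the receptor genotypes (y axis) is plotted with its limma SE in 4 settings of the slide, marked by symbol. Rspo1 and Sostdc1 lie above 2.8 in all 4. Lgr4 moves from 0.21 to 1.33, Lgr5 from −0.68 to −1.46 and Wif1 from 0.13 to 1.43. The other genes lie near 0 or change with the setting.

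Rspo1 and Sostdc1 were both high in ATX and low in LPA3 tumours, yet they were nearly uncorrelated over the 20 tumours once genotype means were subtracted. Over the 20 tumours they correlated at r = 0.56, and at r = 0.60 after the mean of each slide set was subtracted. After the mean of each genotype was subtracted r was 0.04. That value pools the 4 genotypes and does not give the relation within any single genotype. ATX mouse 1 had the highest Rspo1 and the lowest Sostdc1 of the ATX tumours, and LPA3 mouse 3 the lowest Rspo1 and a Sostdc1 of −3.16, above the LPA3 median of −3.60. These points share the arrays and the reference, and the correlations are descriptions.

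**Figure D4:**
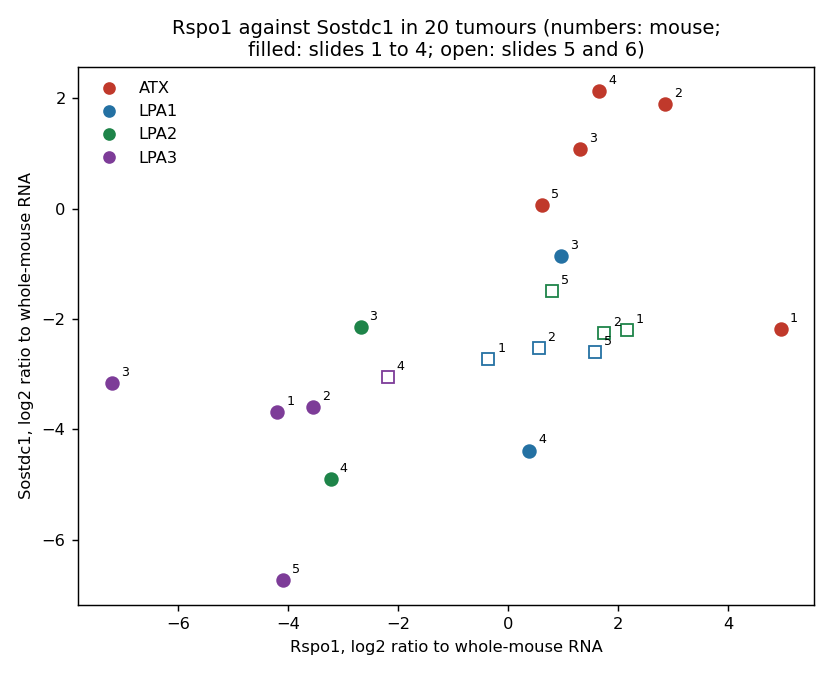
Each point is 1 of 20 tumours, with the log2 ratio of Rspo1 on the x axis and of Sostdc1 on the y axis, coloured by genotype and labelled by mouse number, filled for slides 1 to 4 (and the mean of both arrays for LPA1 mouse 4) and open for slides 5 and 6. ATX tumours lie to the upper right and LPA3 tumours to the lower left, with ATX mouse 1 at 4.96 and −2.18 apart from the other ATX tumours.

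The genes whose pattern over the 20 tumours was most like Rspo1, by Pearson r after slide-set centring among 18934 others, were the chemokine Xcl1 (0.88), the oestrogen receptor Esr1 (0.87), Hacd3 (0.86), the NF-kB subunit Relb (0.85) and the transporter Slc16a9 (0.84). For Sostdc1 they were Zbtb5 (0.90), secretin Sct (0.87), Ikzf5 (0.83), Hacd3 (0.83) and the Wnt receptor Fzd6 (0.83). On slides 1 to 4 alone, with 13 tumours, these 10 values ran from 0.85 to 0.91. Without centring Xcl1 fell from 0.88 to 0.66 and Esr1 from 0.87 to 0.84. After subtracting genotype means instead, the 5 genes of Rspo1 ran from 0.34 (Xcl1) to 0.61, with Esr1 at 0.61 and Slc16a9 at 0.39. Those of Sostdc1 ran from 0.63 (Fzd6) to 0.83 (Zbtb5). The genes were picked by their correlation in these same tumours, so nothing is read from these values. For Wif1 the most alike were Smox (0.88), Pros1 (0.84) and Prss12 (0.82), and for Lgr5 Hsf4 (0.85), Mob3b (0.85) and Htr2b (0.84). For Rspo2 they were Vat1l (0.80), Mdga2 (0.80) and Zdbf2 (0.77), and for Rspo3 Xpo6, Ppp1r7 and Rsl1d1 (all 0.80). For Lgr4 they were Tfap2c (0.85), Tspan2 (0.83) and Olfr1434 (0.83). Without centring these 3 were at 0.19, 0.52 and 0.71, and after subtracting genotype means at 0.04, 0.49 and 0.65. The values of Lgr4 and Rspo3 average 2 probes that did not track each other, which limits what their likeness means. For Lgr6 the most alike were Nmnat3 (0.91), Ciz1 (0.88) and Crybg3 (0.87), and for Sfrp1 Rbm41 (0.80), Gramd1b (0.78) and Cask (0.76).

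Markers of luminal hormone-sensing cells were higher in ATX. Of 7 listed markers 5 were measured, and all 5 had a higher mean in ATX than in the receptors, with a median difference of 2.12 against −0.04 over all genes. The difference was 2.12 (SE 0.33) in the oestrogen receptor Esr1 and 3.74 (SE 0.52) in the RANK ligand Tnfsf11. Both were known from earlier results of these data, so their values are a description and no p-value is printed. Cited1 (2.31), the progesterone receptor Pgr (1.03) and the pioneer factor Foxa1 (1.02) were not called by limma. The median of the 5 markers per tumour ranged from 0.00 to 3.18 for ATX tumours, −0.04 to 0.98 for LPA1, −0.21 to 1.05 for LPA2 and −0.35 to −0.07 for LPA3. Over tumours it correlated with Sostdc1 at 0.83 and with Rspo1 at 0.53, where Rspo1 correlated about as much with the median of 4 endothelial markers (0.52). After genotype means were subtracted, Rspo1 correlated with Esr1 at 0.61, Tnfsf11 at 0.43, Pgr at 0.14 and Cited1 at −0.34. Sostdc1 then correlated with Esr1 at 0.55, Pgr at 0.47, Cited1 at 0.33 and Tnfsf11 at 0.33. ATX mouse 1, low in Sostdc1, had Cited1 at −0.44, Foxa1 at −0.99 and Pgr at 0.00, each the lowest of its genotype, and Esr1 at 2.53. Its Rspo1 was nonetheless the highest.

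Basal and myoepithelial markers were higher in ATX in 9 of 9 cases (median difference 0.92), with 0 called by limma and 4 at an unadjusted p under 0.05, beside 12.7% of all genes. Their median per tumour ranged from −0.33 to 0.81 for ATX tumours, −2.32 to 0.04 for LPA1, −0.92 to 0.33 for LPA2 and −2.31 to −0.27 for LPA3, and correlated at 0.61 with Rspo1 and 0.63 with Sostdc1. Calponin Cnn1, a myoepithelial contractile protein, was higher in ATX than in the receptors by 2.48 (SE 0.61, limma adjusted p = 0.131). Against LPA3 alone, the contrast added after the values had been seen, the difference was 4.24. Other marker lists differed too, with 0 genes called by limma. Of 8 luminal alveolar markers 7 were higher in ATX (median 0.59), with the casein Csn2 at 4.03 (SE 1.33). Of 4 endothelial markers 3 were higher (median 0.14). Liver markers were lower in 6 of 6 cases (median −1.38), skeletal muscle in 5 of 5 (−1.33), adipocyte in 3 of 4 (−0.68) and fibroblast in 4 of 6 (−0.25). With the slide set as a covariate the medians were −0.15 for liver, 0.18 for skeletal muscle, 0.75 for adipocyte and 0.03 for fibroblast markers, against 2.36 for hormone-sensing and 1.55 for basal markers. The alveolar median was then 0.30, with 5 of 8 higher and Csn2 at 2.05, and the endothelial median 0.42. A ratio to whole-mouse RNA does not show whether a marker is absent, so no marker can be said to be at 0. The part of any of these cell types in the values of Rspo1 and Sostdc1 was not tested.

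No gene of the other pathway lists was called for ATX against the receptors. Of 79 measured genes in 6 lists, 40 had a higher and 39 a lower mean in ATX than in the receptors. By limma 0 were called, also with the slide set as a covariate, beside 0.0996% of all genes, and 12 had an unadjusted p under 0.05, beside 12.7%. The median difference over all genes was −0.04. The remaining genes of the R-spondin module were near 0, with the ligand Rspo4 at −0.24 (SE 0.32) and the ubiquitin ligases Znrf3 at 0.19 (SE 0.31) and Rnf43 at 0.46 (SE 0.36).

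Of 19 Wnt ligands, 6 had a higher and 13 a lower mean in ATX (median −0.18). The largest differences were in Wnt4, which acts downstream of progesterone in the mammary gland (1.80, SE 0.49, adjusted p = 0.16), Wnt16 (−1.47, SE 0.68) and Wnt6 (1.24, SE 0.47). With the slide set as a covariate Wnt16 was at −0.34. Of 15 Wnt receptors, 12 had a higher mean in ATX (median 0.20), led by Fzd3 at 0.80, Fzd6 at 0.78 and Fzd4 at 0.59. Fzd4 was lowest in LPA3 (−2.14 ± 1.11) and near the reference in LPA1 (0.02 ± 1.03).

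Of 16 further Wnt antagonists, 7 had a higher and 9 a lower mean in ATX (median −0.07). In contrast to Sostdc1, the largest differences with no slide term were negative. They were in Dkk1, an inhibitor of the Wnt co-receptors (−1.61, SE 0.44, adjusted p = 0.164), Sfrp2 (−1.28, SE 0.51) and Apcdd1 (−0.79, SE 0.46), with Sfrp4 at 0.78. With the slide set as a covariate the largest was positive, Sfrp4 at 1.42. Sfrp2 was then at −1.24, Dkk1 at −1.21 and Apcdd1 at −0.41. Of 12 measured Wnt target genes, 7 had a higher and 5 a lower mean (median 0.09), with Axin2 at 0.60 (SE 0.76), Sp5 at −0.87 (SE 0.67) and cyclin D1, Ccnd1, at 0.56 (SE 0.45). Axin2 ranged from −2.59 to 3.40 within LPA3 alone, more than the distance between any genotype means. Of 14 genes of the BMP pathway, which Sostdc1 also inhibits, 6 had a higher and 8 a lower mean (median −0.08). They included the ligands Bmp7 (1.68, SE 0.51, adjusted p = 0.194) and Bmp2 (−1.37, SE 0.40, adjusted p = 0.183) and the receptor Bmpr1b (1.45, SE 0.52). All adjusted p-values of these genes are from limma over all genes.

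**Figure D5:**
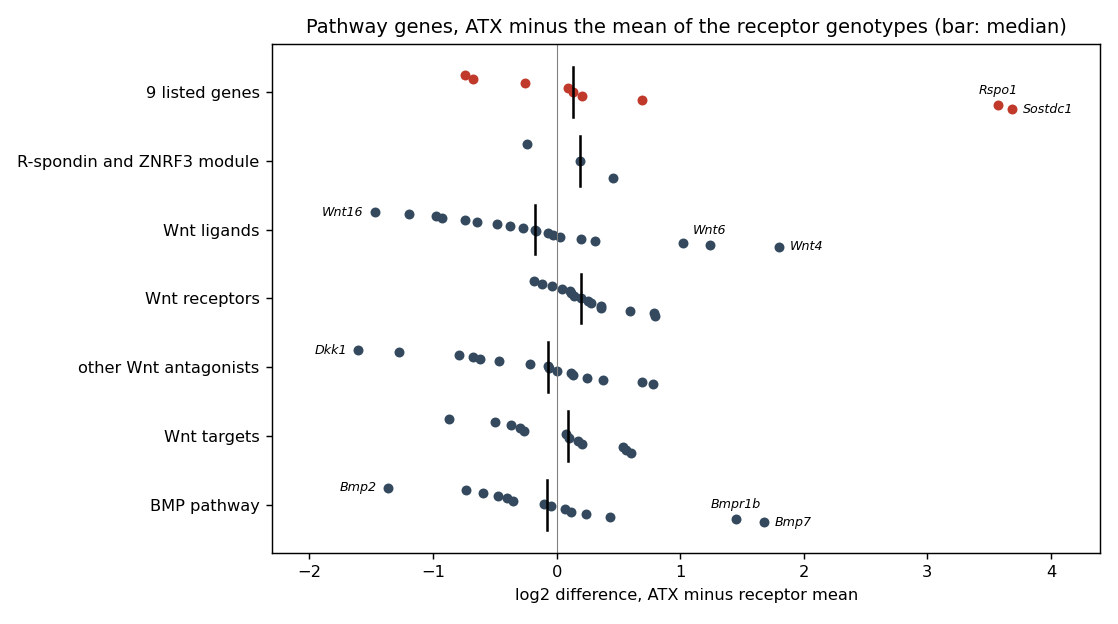
Each point is 1 gene, placed by the log2 difference of ATX minus the mean of the receptor genotypes (x axis) in its list (y axis), with the median of the list as a bar. Rspo1 and Sostdc1 lie at 3.57 and 3.68, and the 79 genes of the other 6 lists lie within 1.80 of 0 on either side.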

How the data were processed

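The authors deposited processed log ratios of tumour (Cy5) to whole-mouse RNA (Cy3) for each feature, taken here as log2. The base, scanner processing, background correction and normalization are not given in the sources used here. Qiagen RNeasy kits were used for RNA, per the labels' protocols. All array medians were 0, and depth does not apply. Features were named through the platform annotation (33653 with 1 symbol), and features of a gene were averaged. Both arrays of LPA1 mouse 4 were averaged, and the repeat was used where the slide was a term. Slides were read from the array titles.

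Genes measured in at least 4 tumours per genotype (19069) were fitted with limma 3.58.1 in R 4.3.3 over 20 tumours, with 16 residual degrees of freedom and no covariate, with Benjamini-Hochberg adjustment over all genes and a threshold of 0.05 for a call. The 95% intervals use 16 degrees of freedom. The fit was tested on simulated data. Alternatives concerned slide, normalization, array weights, probes and left-out tumours. Mouse numbers name separate animals and do not pair them. The members and lists were chosen with earlier results of these data known. Named were all 9 genes, up to 3 genes of largest difference per list with every called one, and the 3 most alike genes per member (5 for Rspo1 and Sostdc1). Python 3.11.15 with pandas 2.3.3, numpy 2.4.6 and matplotlib 3.10.9 was used.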

Additional observations from a re-analysis of the deposited data

Results flagged for a closer look

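Of 36 sets of 5 tumours (9 genes in 4 genotypes), 4 held a tumour far from the others, that is, with a gap to the nearest tumour that took up most of the range of the set. For 5 values of 1 spread, chance gives this in about 1 of 20 sets. The slides differed in spread and the same tumours recur over the 9 genes, so that rate may not hold here. Sostdc1 of LPA3 mouse 5 was −6.73, where the next lowest LPA3 tumour was −3.69. Without it ATX minus LPA3 in Sostdc1 was 3.97. Sostdc1 of LPA2 mouse 4 was −4.89, with the next at −2.25. Lgr4 of LPA2 mouse 3 was −2.06, with the next at −0.81. Rspo3 of LPA3 mouse 2 was −1.94, with the next at −0.32.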

How the results depend on the processing

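The number of arrays limits the precision, no signal over background was used, and 5 tumours per genotype on unevenly spread slides make counts of calls unstable. For ATX against the receptors the count of 1 called gene became 2 with the slide set as a covariate and 3 with array weights (Rspo1, Sostdc1 and Lgr6). Of all 19069 genes 19 were called with no covariate, 27 with the slide set and 2522 with array weights. The count of members became 0 with the slide as a fixed or a random block, on slides 1 to 4 alone, with arrays scaled to 1 spread, with the repeat array of LPA1 mouse 4 alone, and with trend and robust variance. With the mouse number as a replicate block it was also 0. In these settings 0 to 16 of all genes were called. Leaving out 1 tumour gave 0 to 1 members, beside 0 to 116 of all genes. Sostdc1 kept its call only without ATX mouse 1, ATX mouse 5, LPA1 mouse 3 or LPA3 mouse 5. For the 4 genotypes the count of 0 became 1 with the slide set and 2 with array weights, and 0 to 1 without 1 tumour (1 without ATX mouse 1 or LPA2 mouse 4). Of all genes 14 were called with the slide set, 2904 with array weights and 0 to 37 without 1 tumour. For ATX against LPA3 the count of 2 became 3 with array weights, 0 with the slide as a fixed block, and 1 with the slide as a random block, on slides 1 to 4 alone, with the repeat array, and with the mouse number as a replicate block. It was 0 to 2 without 1 tumour, and 0 without ATX mouse 2 or 4 or LPA3 mouse 1, 3 or 5. Of all genes 1030 were called with array weights, 0 with the slide as a fixed block and 4 to 79 without 1 tumour.

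With array weights Rspo1 was called for LPA3 against LPA1 and LPA3 against LPA2, which made those counts 1. In these 2 fits 828 and 1079 of 19069 genes were called. In LPA2 against LPA1 no count changed. The count of 1 for the slide set (Lgr4) became 0 after scaling or quantile normalization, beside 840 and 911 of 19069 genes called. Among single differences, LPA2 minus LPA1 of Rspo1 turned from −0.87 to 0.35 with the slide as a fixed block, 0.97 on slides 5 and 6 alone and 0.34 with array weights. That of Sostdc1 turned from 0.02 to −0.36 on slides 1 to 4 alone and −0.19 with the first array of LPA1 mouse 4, and ranged from −0.42 to 0.60 without 1 tumour. LPA3 minus LPA1 of Wif1 turned from 2.20 to −0.74 on slides 5 and 6 alone, and LPA3 minus LPA2 of Wif1 from 0.72 to −0.28 with the slide as a fixed block and −1.52 on slides 5 and 6 alone. The cause of these changes was not tested.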
